A study of Mus musculus with 18 samples.

Results

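NIH 3T3 fibroblasts with a disrupted LINC complex were compared on a stiff and a soft substrate. The 6 libraries concerned, of 18 in the series, were chosen by their labels as 3 libraries from SUN1L cells on 308 kPa gels and 3 from SUN1L cells on 1 kPa gels. NIH 3T3 is an immortalized mouse embryonic fibroblast line, and the cells used here carried the Tet-ON 3G activator and a retroviral construct under puromycin selection. SUN1L cells expressed SS-HA-SUN1L-KDEL, a tagged luminal domain of SUN1 that acts as a dominant negative, and the reference line expressed SS-GFP-KDEL and is called KDEL. All of these cells received 1 µg/ml doxycycline for 48 h and grew on fibronectin-coated polyacrylamide gels, without an inhibitor. KDEL libraries came from 308 kPa gels (n = 3) and 1 kPa gels (n = 3), and the other 6 libraries of the series, KDEL cells on 308 kPa with 10 µM blebbistatin or 25 µM Y27632, entered only where stated. Each construct was studied in 1 selected population, and the methods describe enrichment by fluorescence only for the KDEL line, so that construct and selection cannot be told apart. The SUN1L construct is not a miRNA, and these libraries therefore hold no direct check of its expression. The methods call the 3 libraries of a group biological replicates, while no label ties a library to its own culture, and the p-values below measure the spread between libraries.

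The LINC complex spans the nuclear envelope. SUN proteins of the inner nuclear membrane bind the KASH domains of nesprins in the space between the membranes, and nesprins bind the cytoskeleton, so that a free SUN1 luminal domain displaces nesprins and uncouples the nucleus from the cytoskeleton. MicroRNAs are cut from hairpins by Drosha in the nucleus and by Dicer in the cytoplasm. Each hairpin gives a 5p and a 3p arm, of which usually one, the guide, is loaded into an Argonaute protein while the other, the passenger, is degraded. The guide recognizes its target mRNAs mainly through its seed, bases 2 to 8 from its 5′ end.

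The sequences on which the results turn are given here as RefSeq holds them for GRCm38.p6, with the seed in capitals. The first set holds the 5p arms that share the seed AAAGUGC (miR-17 family) or AGCAGCA (miR-15/16 family). Each tested miRNA with a sequence under its name here and either seed was called higher on 308 kPa in the authors' normalized values. So were 64.4% of all tested miRNAs. All tested miRNAs with the seed ACAUUCA (4 of 4) or AUUGCAC (4 of 4), and with some other seeds, were called higher as well.
miR-17-5p: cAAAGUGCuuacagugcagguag
miR-20a-5p: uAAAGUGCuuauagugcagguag
miR-93-5p: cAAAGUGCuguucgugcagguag
miR-106b-5p: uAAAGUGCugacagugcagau
miR-15a-5p: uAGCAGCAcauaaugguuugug
miR-15b-5p: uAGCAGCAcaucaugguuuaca
miR-16-5p: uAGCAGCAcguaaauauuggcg
miR-195a-5p: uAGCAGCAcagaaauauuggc
miR-322-5p: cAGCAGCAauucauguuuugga
The second set holds miRNAs with large differences outside these families, of which miR-362-3p and miR-501-5p are the less abundant arms of their hairpins over the 6 SUN1L libraries. miR-17-5p lies at chr14:115043684-115043706 on the + strand, miR-221-3p at chrX:19146307-19146329 on the − strand, and miR-362-3p at chrX:7241984-7242005 on the − strand within the span of Clcn5.
miR-194-5p: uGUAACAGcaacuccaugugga
miR-362-3p: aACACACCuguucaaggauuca
miR-221-3p: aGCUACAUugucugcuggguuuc
miR-501-5p: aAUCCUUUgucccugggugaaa
miR-31-5p: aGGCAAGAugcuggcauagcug
The third set holds miRNAs that were called lower on 308 kPa. miR-200a-5p lies at chr4:156054949-156054970 on the − strand, miR-871-3p at chrX:66810438-66810460 on the − strand, and miR-3535 at chr1:86352062-86352087 on the − strand within the span of Ncl, which encodes nucleolin.
miR-200a-5p: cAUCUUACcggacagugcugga
miR-871-3p: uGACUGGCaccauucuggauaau
miR-184-3p: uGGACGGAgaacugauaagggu
miR-3535: uGGAUAUGaugacugauuaccugaga
miR-100-5p: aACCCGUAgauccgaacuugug
The fourth set completes 3 hairpins whose arms moved apart, miR-10b, miR-195a and miR-708.
miR-10b-5p: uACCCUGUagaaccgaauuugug
miR-10b-3p: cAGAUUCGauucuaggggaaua
miR-195a-3p: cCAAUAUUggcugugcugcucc
miR-708-5p: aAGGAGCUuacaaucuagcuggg
miR-708-3p: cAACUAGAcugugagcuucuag
The fifth set shows let-7 guides, which share the seed GAGGUAG and differ elsewhere at few positions.
let-7d-5p: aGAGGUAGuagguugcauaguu
let-7b-5p: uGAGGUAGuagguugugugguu
let-7c-5p: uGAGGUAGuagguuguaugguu
let-7g-5p: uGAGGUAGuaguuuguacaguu
let-7i-5p: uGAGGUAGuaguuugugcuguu
let-7f-5p: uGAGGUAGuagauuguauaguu

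The reads that the table assigns to miRNAs numbered 5279727, 4001638 and 6727402 in the libraries on 308 kPa and 4115645, 2765837 and 8485822 on 1 kPa (exact permutation test, two-sided, p = 1). The composition of the libraries differed with the substrate. The median value of the tested miRNAs was 168, 142 and 173 on 308 kPa, against 78.8, 39.1 and 87.2 on 1 kPa, and miR-21a-5p, the most abundant miRNA, took 24.9%, 24.2% and 19.3% of reads on 308 kPa, against 37.8%, 35.6% and 40.3% on 1 kPa. Neither measure overlapped between the groups (exact permutation test, two-sided, p = 0.1 for each, the smallest that 3 against 3 libraries allow). SUN1L 1 kPa library 2 had the lowest value of the 6 libraries for 359 of 481 tested miRNAs. Outside the comparison, KDEL 308 kPa blebbistatin library 3 stood apart from its own group, with a mean Spearman correlation of 0.779 to the other 2 libraries, against 0.962 to 0.985 in the 6 SUN1L libraries. On a score that runs from about 0 at blebbistatin libraries 1 and 2 to 1 at blebbistatin library 3, the SUN1L libraries lay at 0.04, 0.10 and 0.01 on 308 kPa and at 0.38, 0.68 and 0.37 on 1 kPa (exact permutation test, two-sided, p = 0.1), while KDEL libraries lay at 0.013 to 0.044 on 308 kPa and 0.18 to 0.26 on 1 kPa.

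A miRNA was tested where 3 or more of the 18 libraries reached a value of 10. Of 481 such miRNAs, 310 were called higher and 12 lower in SUN1L cells on 308 kPa than on 1 kPa (limma, threshold of 0.05 on p after Benjamini-Hochberg adjustment, 64.4% and 2.49% of those tested). Differences are given on the log2(value + 1) scale as 308 kPa minus 1 kPa, and the values are the authors' normalized values. The median difference over the tested miRNAs was 1.34 (quartiles 0.51 and 2.07, range −1.73 to 4.34). The change was at least 2-fold for 289 of the miRNAs called higher and 11 called lower, at least 4-fold for 131 and at least 8-fold for 29 called higher. Values of the groups did not overlap for 296 of the 310 higher and 11 of the 12 lower miRNAs, where 65.7% and 3.53% of tested miRNAs lay wholly above and wholly below. At an unadjusted p under 0.05 there were 334 miRNAs. The filter bears on these counts, since 14 miRNAs passed it only through the SUN1L 308 kPa libraries (6 of them called higher) and 5 only through the SUN1L 1 kPa libraries.

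The balance of directions depended on how the libraries were scaled. Median-of-ratios scaling, which sets the typical miRNA of each library to one level, brought the median difference to 0.02 and gave 110 higher and 105 lower miRNAs (22.9% and 21.8%), and quantile scaling gave 116 and 112 (24.1% and 23.3%). Tests on the reads recovered from the values called 21.4% higher and 25.6% lower with edgeR, and 23.5% and 23.1% with DESeq2. Scaling to the total count instead left more miRNAs higher than lower, with 239 and 34 (49.7% and 7.07%). Under the deposited, median-of-ratios and quantile scalings alike, 101 miRNAs were higher (21%) and 12 lower (2.49%), and 94 and 12 of these were called by edgeR and DESeq2 as well. Of the 310 miRNAs called higher as deposited, 8 were called lower after one of these scalings, among them miR-182-5p, miR-423-3p and miR-130b-5p, while 92 miRNAs with no call as deposited were lower under median-of-ratios. A difference in total miRNA per cell and a difference in the composition of the libraries cannot be told apart in these values. In what follows the difference after median-of-ratios scaling is given as rescaled.

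**Figure D1:**
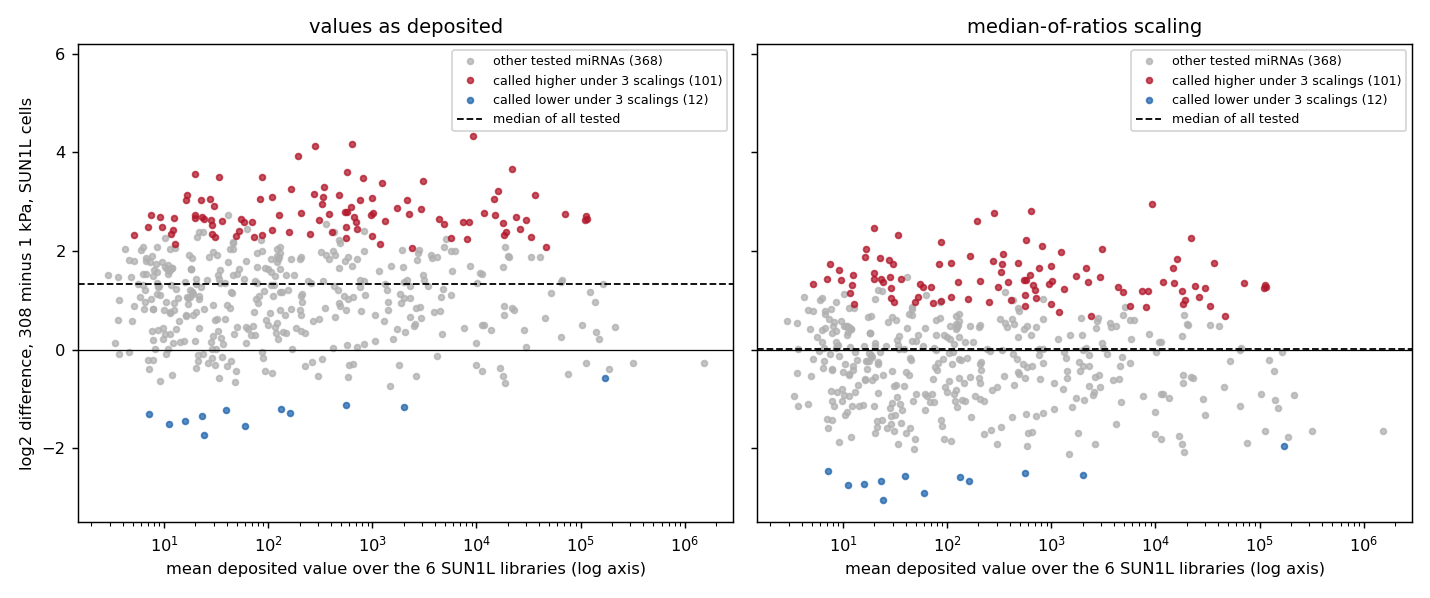
Log2 difference between substrates (308 minus 1 kPa, vertical) against the mean deposited value over the 6 SUN1L libraries (horizontal, log axis) for the 481 tested miRNAs, as deposited (left) and after median-of-ratios scaling (right), with one point a miRNA. The dashed median lies at 1.34 on the left and 0.02 on the right, and the 101 higher (red) and 12 lower (blue) miRNAs under 3 scalings keep their side in both panels.

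Left out in turn, the 6 SUN1L libraries gave 260 to 320 higher and 9 to 17 lower miRNAs, and 237 and 6 were called in all 6 of these fits. The spread that the fit assumed mattered more. With all 18 libraries in the fit only 19 miRNAs were higher and 1 lower, and without blebbistatin library 3 in that fit 66.9% of the miRNAs were higher and 2.91% lower. Across the 481 miRNAs the SUN1L difference also correlated with the difference of blebbistatin libraries 1 and 2 minus library 3 (Pearson r = 0.84, n = 481 miRNAs, which are not independent), 3 libraries of one treatment that share no library with the SUN1L groups. miR-17-5p, for example, had 28186 and 30964 in blebbistatin libraries 1 and 2, and 21.9 in library 3. The part of whatever set this library apart in the SUN1L result was not tested.

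The largest difference belonged to miR-17-5p, a guide of the miR-17-92 cluster that is known for promoting proliferation. miR-17-5p had values of 16608, 15648 and 19547 on 308 kPa, against 1684, 270.3 and 1350.5 on 1 kPa, a 15.7-fold ratio of means and a log2 difference of 4.34 ± 0.50 (SE) with an adjusted p of 4.49e-05, and 2.95 rescaled. The 308 kPa values lay close together and the 1 kPa values were all lower by about an order of magnitude or more, with library 2 lowest. miR-194-5p, a guide abundant in intestine and liver, had 1048, 1037 and 1489 on 308 kPa, against 117, 17.8 and 123 on 1 kPa (13.9-fold, 4.18 ± 0.55 (SE), adjusted p = 5.78e-05, 2.81 rescaled). Library 2 was again lowest on 1 kPa, and the groups did not overlap.

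miR-362-3p and miR-501-5p come from one X-chromosomal group of hairpins within the span of Clcn5. miR-362-3p had 419.8, 420.5 and 730.0 on 308 kPa, against 74.6, 10.7 and 26.6 on 1 kPa (log2 difference 4.13 ± 0.52 (SE), adjusted p = 5.78e-05). miR-501-5p had 168, 137 and 176 on 308 kPa, against 16.6, 5.93 and 22.6 on 1 kPa (3.498 ± 0.40 (SE), adjusted p = 4.49e-05). In both the lowest 308 kPa value was more than 5 times the highest 1 kPa value. Rescaled, the differences were 2.77 for miR-362-3p and 2.17 for miR-501-5p.

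miR-221-3p, which is known to target the cell cycle inhibitor p27, was the most abundant of the 10 largest. It had 41147, 33911 and 44802 on 308 kPa, against 6094, 1127 and 4533 on 1 kPa, a 10.2-fold ratio of means (log2 difference 3.66 ± 0.49 (SE), adjusted p = 5.78e-05, 2.27 rescaled). Both groups were well separated, and 1 kPa library 2 was lowest. The passenger miR-93-3p had 362, 289.8 and 427 on 308 kPa, against 59.1, 5.93 and 29.3 on 1 kPa (3.94 ± 0.56 (SE), adjusted p = 6.5e-05), and miR-339-5p had 992, 887 and 1275 on 308 kPa, against 133, 33.2 and 138 on 1 kPa (3.60 ± 0.45 (SE), adjusted p = 5.78e-05). Neither overlapped between the groups, and the rescaled differences were 2.601 for miR-93-3p and 2.22 for miR-339-5p.

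The other 3 of the 10 largest were passengers of the miR-15/16 family and miR-1983. miR-15a-3p had 33, 27.2 and 52.9 on 308 kPa, against 2.07, 1 and 4 on 1 kPa, where 1 is the floor of the table and stands for no read (log2 difference 3.57 ± 0.39 (SE), adjusted p = 4.49e-05). miR-16-2-3p had 45.5, 29.9 and 112 on 308 kPa, against 9.33, 1.19 and 4 on 1 kPa (3.496 ± 0.54 (SE), adjusted p = 0.000104). These 1 kPa values stand for few reads each, so that the size of the differences depends on the added 1, while the 308 kPa values were above all of them. miR-1983 had 2024, 993 and 1385 on 308 kPa, against 303, 41.5 and 156 on 1 kPa (3.47 ± 0.53 (SE), adjusted p = 0.000103). All 10 were called higher after median-of-ratios and quantile scaling as well.

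**Figure D2:**
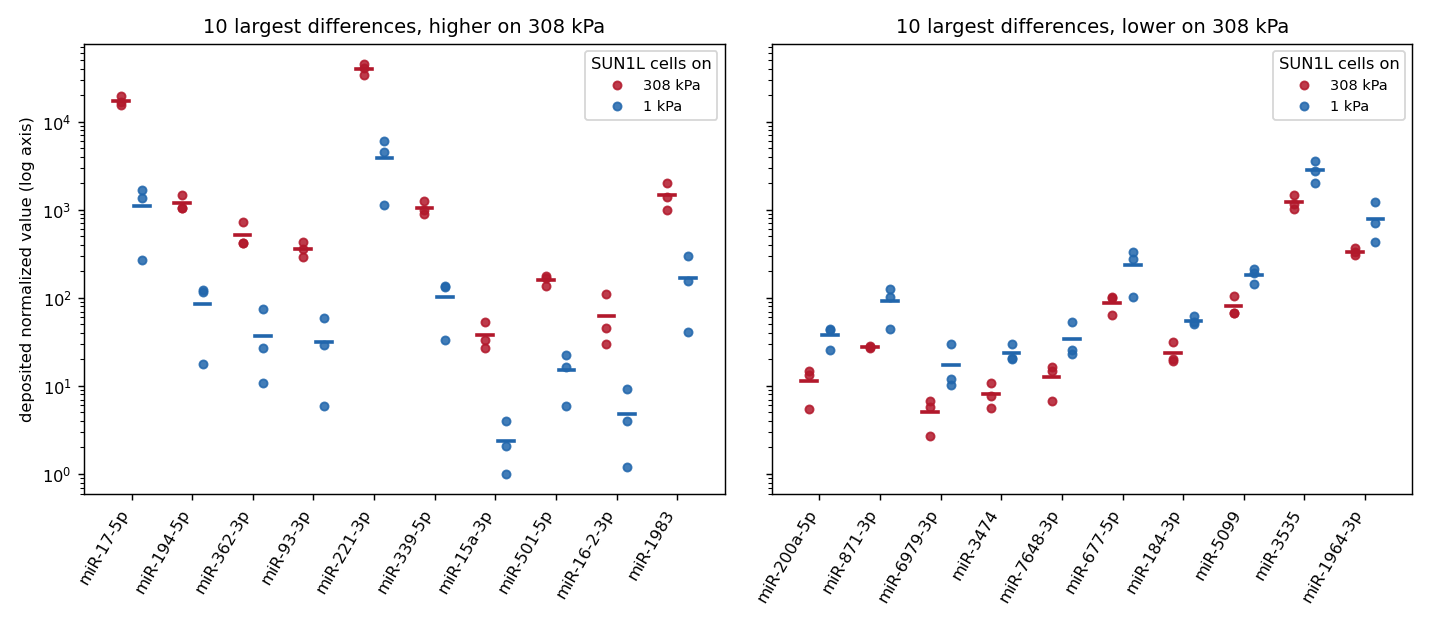
Deposited normalized value (log axis) of the 10 miRNAs with the largest difference in each direction among those called with groups that do not overlap, in SUN1L cells on 308 kPa (red) and 1 kPa (blue), with one point a library and the mean as a line (n = 3 each). The miR-17-5p points sit at 15648 to 19547 on 308 kPa and 270.3 to 1684 on 1 kPa, and miR-200a-5p at 5.44 to 14.8 on 308 kPa and 25.9 to 43.9 on 1 kPa.

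The 12 miRNAs called lower were mostly of low level. All 12 were also lower under median-of-ratios and quantile scaling, in edgeR and in DESeq2. The same held in each fit without 1 SUN1L library under median-of-ratios. These settings lower the differences of miRNAs in general (median 1.34 as deposited, 0.02 after median-of-ratios scaling). Their agreement on miRNAs already lower as deposited is therefore no separate support. As deposited, 6 of the 12 were called in each fit without 1 SUN1L library, namely miR-200a-5p, miR-871-3p, miR-184-3p, miR-5099, miR-3535 and miR-1964-3p. miR-200a-5p, the passenger arm of an epithelial miRNA, had 14.8, 5.44 and 13.5 on 308 kPa, against 25.9, 43.9 and 43.3 on 1 kPa (log2 difference −1.73 ± 0.43 (SE), adjusted p = 0.00256, −3.04 rescaled). miR-871-3p, from an X-linked cluster known for expression in testis, had 27.3, 28.6 and 27.9 on 308 kPa, against 44.6, 126 and 103.2 on 1 kPa (−1.55 ± 0.41 (SE), adjusted p = 0.00395, −2.90 rescaled). Each 308 kPa value of both was below each 1 kPa value.

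miR-3535 was the most abundant of the lower miRNAs that changed by at least 2-fold. It had 1459.5, 1033 and 1180.1 on 308 kPa, against 2793, 3615 and 1993 on 1 kPa (log2 difference −1.17 ± 0.33 (SE), adjusted p = 0.00644, −2.55 rescaled). miR-184-3p, a guide of cornea and lens, had 31.9, 19.1 and 20.2 on 308 kPa, against 50.8, 61.6 and 53.3 on 1 kPa (−1.22 ± 0.35 (SE), adjusted p = 0.00701, −2.57 rescaled). The groups were apart in both. miR-1964-3p had 365, 303 and 328.9 on 308 kPa, against 431.2, 1227 and 718 on 1 kPa (−1.12 ± 0.37 (SE), adjusted p = 0.0146), and miR-5099 had 105.8, 66.7 and 67.3 on 308 kPa, against 145.1, 212.2 and 192 on 1 kPa (−1.20 ± 0.34 (SE), adjusted p = 0.00575).

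The remaining lower miRNAs lost their call as deposited in at least 1 fit without a SUN1L library. miR-677-5p had 101, 64 and 100.03 on 308 kPa, against 102, 279 and 334 on 1 kPa (log2 difference −1.28 ± 0.41 (SE), adjusted p = 0.0131). miR-6979-3p, miR-3474, miR-7648-3p and miR-6900-3p had mean values under 30 over the 6 libraries and differences of −1.51, −1.45, −1.36 and −1.31, and the groups overlapped for miR-6900-3p only. miR-100-5p, a guide that targets mTOR, was the one abundant member. It had 143674, 131340.0 and 132758 on 308 kPa, against 162071, 211616 and 241380.4 on 1 kPa, so that the mean on 1 kPa was 1.51 times that on 308 kPa (log2 difference −0.57 ± 0.24 (SE), adjusted p = 0.0436, −1.96 rescaled).

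The most abundant miRNAs in SUN1L cells were not those with the largest differences. miR-21a-5p, a guide known to be raised in fibrosis, had 1498155, 1318965 and 1251386 on 308 kPa, against 1614028, 1168780.0 and 2274823 on 1 kPa, with overlapping groups and a log2 difference of −0.27 ± 0.28 (SE) (adjusted p = 0.422). It was not called as deposited and was lower after rescaling (−1.65, adjusted p = 0.000189). The same held for miR-143-3p (−0.27 as deposited and −1.65 rescaled), let-7i-5p (0.46 as deposited and −0.93 rescaled), miR-99b-5p (−0.39 as deposited and −1.78 rescaled) and miR-30a-5p (0.21 as deposited and −1.18 rescaled), which with miR-21a-5p are the 5 most abundant of the 159 miRNAs with no call. For let-7i-5p and miR-30a-5p the direction turned with the scaling, and under quantile scaling only miR-99b-5p of these 5 was called, as lower.

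Among the most abundant miRNAs called higher, the call depended on scaling for some and not for others. miR-24-3p had 311609, 193306 and 193433 on 308 kPa, against 103265, 59817 and 118065 on 1 kPa (log2 difference 1.33 ± 0.29 (SE), adjusted p = 0.00108), close to the median of all miRNAs, and −0.06 rescaled. miR-22-3p (0.96 as deposited and −0.43 rescaled) and miR-199a-5p (1.18 as deposited and −0.21 rescaled) turned direction in the same way, and let-7g-5p came out at 1.42 as deposited and 0.03 rescaled. Here and below a turned direction is a change of sign of any size, which need not be a call as lower. miR-125b-5p, a homologue of the worm gene lin-4, had 218184, 163305 and 197320.5 on 308 kPa, against 43648, 14468 and 40509 on 1 kPa (2.70 ± 0.35 (SE), adjusted p = 5.78e-05, 1.31 rescaled). miR-29a-3p, which targets collagen mRNAs, had 149955, 84660.3 and 128811 on 308 kPa, against 28540.3, 7113 and 26806 on 1 kPa (2.74 ± 0.43 (SE), adjusted p = 0.000115, 1.36 rescaled). Both were higher under all 3 scalings, as were miR-199a-3p (2.65 as deposited and 1.26 rescaled) and miR-199b-3p (2.64 as deposited and 1.25 rescaled), which have one mature sequence and cannot be told apart by their reads.

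The arms of one hairpin are cut from one transcript, and the ratio of their values within a library does not depend on the scaling of that library. The test took the ratio after 1 was added to each value, so that scaling still enters for arms near the floor. Of 133 hairpins with both arms tested, the ratio of 5p to 3p differed between 308 kPa and 1 kPa in 70 (52.6%, adjusted p under 0.05, limma), with the 5p arm up relative to the 3p arm in 31 and the 3p arm up relative to the 5p arm in 39. At an unadjusted p under 0.05 there were 76. The arms differed by at least 4-fold in 24 hairpins, and over the 133 hairpins the differences of 5p and 3p arms had a Pearson r of −0.02 and a Spearman rho of −0.03. Both arms were called higher in 71 hairpins, 1 arm only in 53, neither in 7, and the arms had opposite calls in 2, miR-200a and miR-100. Of the 67 hairpins with a mean of at least 100 in both arms, 38 were among those called. With all 18 libraries in the fit the counts were 7 for 5p and 17 for 3p. With 20 in place of the added 1 the counts were 39 for 5p and 37 for 3p. As for single miRNAs, the change of the ratios correlated with that of blebbistatin libraries 1 and 2 minus library 3 (r = 0.85 over 133 hairpins), and its part in the result was not tested.

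The largest changes of ratio in favour of the 3p arm were in miR-532, miR-10b and miR-200a. In miR-10b, whose hairpin lies among the HoxD genes, the 5p guide had 77928, 103647 and 127809 on 308 kPa, against 99321, 119350.2 and 151448 on 1 kPa, and the 3p passenger had 308.3, 233 and 340.5 on 308 kPa, against 41.5, 11.9 and 51.3 on 1 kPa. The ratio of 5p to 3p was 253, 445 and 375 on 308 kPa, against 2395, 10067 and 2954 on 1 kPa, a log2 change of −3.52 ± 0.45 (SE, adjusted p = 9.9e-05). The guide overlapped between the substrates while the passenger did not. In miR-532 the log2 difference was −0.43 for the 5p arm and 3.31 for the 3p arm, and the ratio changed by −3.74 ± 0.47 (SE, adjusted p = 9.9e-05). In miR-200a the 3p guide was higher (1.64 ± 0.36 (SE), adjusted p = 0.00109, 0.26 rescaled) and the 5p arm lower, with a change of the ratio of −3.36 ± 0.49 (SE, adjusted p = 0.00019). miR-146b and miR-455 had changes of −3.32 and −2.88, and miR-221, whose 3p arm is the guide, of −2.71.

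The largest changes in favour of the 5p arm were in miR-195a and miR-708. miR-195a-5p, of the miR-15/16 family, had 509.6, 498 and 708 on 308 kPa, against 118, 27.3 and 115 on 1 kPa, and miR-195a-3p had 187, 227 and 316 on 308 kPa, against 249, 381.7 and 430.2 on 1 kPa. The ratio of 5p to 3p was 2.73, 2.19 and 2.24 on 308 kPa, against 0.475, 0.0714 and 0.268 on 1 kPa, so that the 5p arm was the more abundant on 308 kPa and the 3p arm on 1 kPa in each library (log2 change 3.48 ± 0.56 (SE, adjusted p = 0.000233)). miR-708-5p had 978, 1162 and 1133 on 308 kPa, against 213, 68.8 and 211 on 1 kPa, and miR-708-3p had 532, 430.0 and 455 on 308 kPa, against 566, 685 and 869 on 1 kPa. Its ratio was 1.84, 2.7 and 2.49 on 308 kPa, against 0.375, 0.1 and 0.243 on 1 kPa, with the same exchange of the more abundant arm (3.46 ± 0.41 (SE, adjusted p = 9.9e-05)). miR-674, miR-361, miR-491 and miR-143 followed in this direction with changes of 3.03, 2.61, 2.55 and 2.41. Of these miR-491 rests on few reads, with means on 308 and 1 kPa of 16.8 and 2.26 (5p) and 4.18 and 5.03 (3p).

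**Figure D3:**
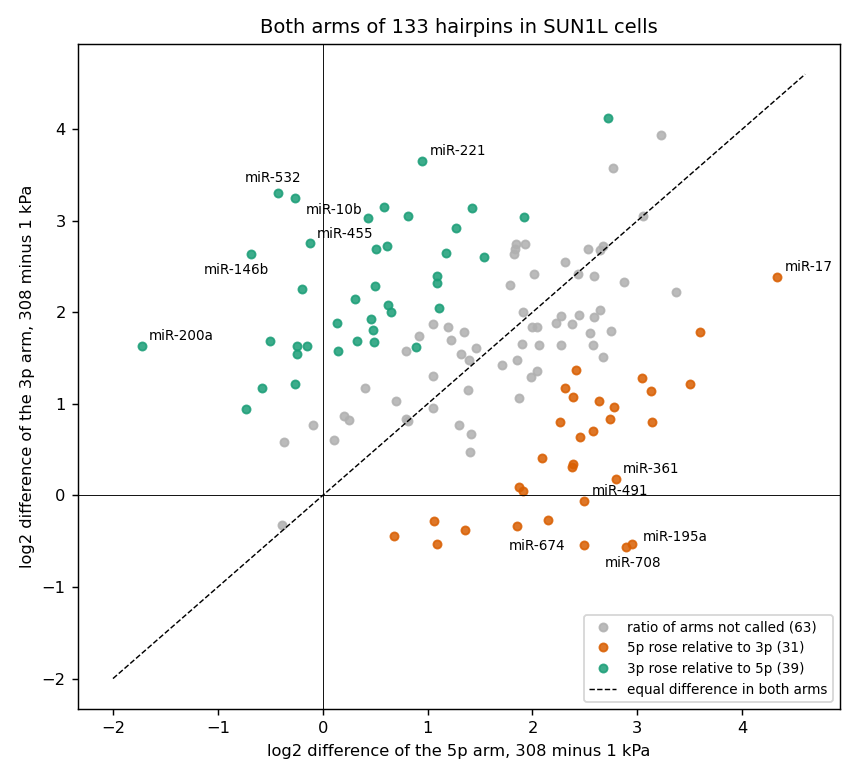
Log2 difference between substrates (308 minus 1 kPa, SUN1L cells, as deposited) of the 3p arm (vertical) against the 5p arm (horizontal) for 133 hairpins, with one point a hairpin, coloured by the call on the ratio of the arms. Points above the dashed line of equal difference favour the 3p arm (39 called, green) and those below it the 5p arm (31 called, orange), and miR-200a lies lowest on the 5p axis at −1.73.

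Families were described by lists of 19 groups with a tested member, whose medians are read against 1.34 over all tested miRNAs and whose counts are read against 64.4% higher. In the miR-17 group, the miR-17-92 cluster and its paralogs, 17 of 17 tested members were called higher, 0 lower and 0 neither, at a median log2 difference of 2.58, and 11 higher and 0 lower after rescaling. The 4 matched 5p arms with seed AAAGUGC ranged between 3.04 and 4.34 and were higher under all 3 scalings. miR-20a-5p had 18556, 27483 and 31171 on 308 kPa, against 4559, 1182 and 5173 on 1 kPa (3.05 ± 0.44 (SE), adjusted p = 7.66e-05), and miR-93-5p, which with miR-25 and miR-106b lies within the span of Mcm7, had 27539, 26516 and 31113 on 308 kPa, against 5379.9, 1080.0 and 4755 on 1 kPa (3.23 ± 0.45 (SE), adjusted p = 6.36e-05). Both were several times higher on 308 kPa with no overlap. miR-25-3p and miR-92a-3p, other guides of the same transcripts with the seed AUUGCAC, came with smaller differences. These were 1.88 as deposited and 0.49 rescaled for miR-25-3p and 1.67 as deposited and 0.28 rescaled for miR-92a-3p, and neither was called rescaled. Over the 4 tested miRNAs with this seed the differences ranged between 0.84 and 2.31, and 1 was higher under all 3 scalings. Within the miR-17-92 transcript the 10 tested arms thus ranged between 1.09 for miR-92a-1-5p and 4.34 for miR-17-5p.

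In the miR-15/16 family, whose guides target cyclins and BCL2, 10 of 13 tested members were called higher, 0 lower and 3 neither, at a median log2 difference of 2.66, and 7 higher and 2 lower after rescaling. The 5 printed 5p arms with seed AGCAGCA ranged between 2.41 and 3.37, and 4 of them were higher under all 3 scalings. miR-16-5p had 7502, 6146 and 8429 on 308 kPa, against 1911, 426 and 1904 on 1 kPa (2.66 ± 0.46 (SE), adjusted p = 0.000234, 1.27 rescaled), and miR-15b-5p had 1677, 1943 and 3102 on 308 kPa, against 336.9, 90.1 and 296 on 1 kPa (3.37 ± 0.44 (SE), adjusted p = 5.78e-05, 1.99 rescaled). Neither overlapped between the substrates. The exception was miR-322-5p (2.41 as deposited, and 1.03 with an adjusted p of 0.0617 rescaled). miR-497-5p, at whose position RefSeq lists miR-497a-5p with the same seed, came out at 3.10 as deposited and 1.73 rescaled and was higher under all 3 scalings. The 3p arms were more varied, with miR-322-3p, which was the more abundant arm of its hairpin, at 1.37 as deposited and −0.02 rescaled and miR-16-1-3p at 1.11 as deposited and −0.28 rescaled.

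In the let-7 group, guides that restrain Lin28, Hmga2 and Ras, 16 of 22 tested members were called higher, 0 lower and 6 neither, at a median log2 difference of 1.40, and 5 higher and 3 lower after rescaling. Its guides have one seed but spread over more than 2 log2 units. let-7d-5p had 21317, 21278 and 36255 on 308 kPa, against 4271, 2676 and 4829.8 on 1 kPa (2.74 ± 0.36 (SE), adjusted p = 5.78e-05, 1.35 rescaled). let-7f-5p had 104652, 148101 and 230251 on 308 kPa, against 106599, 105637 and 148654 on 1 kPa (0.36 ± 0.33 (SE), adjusted p = 0.344, −1.02 rescaled). let-7d-5p was thus separated between the substrates, and let-7f-5p was not. Between them lay let-7b-5p at 2.58, miR-98-5p at 2.58, let-7c-5p at 2.08, let-7e-5p at 1.91, let-7a-5p at 1.87, let-7g-5p at 1.42 and let-7i-5p at 0.46, of which let-7b-5p, let-7c-5p and miR-98-5p were higher under all 3 scalings with let-7d-5p. let-7a-5p and let-7f-5p differ at 1 position of the mature sequence and by 1.504 in log2 difference, and how the counting resolved reads with a mismatch between such members is not given in the sources used here.

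In the miR-29 family, whose guides target collagens and other matrix mRNAs, 6 of 7 tested members were called higher, 0 lower and 1 neither, at a median log2 difference of 2.62, and 4 higher and 0 lower after rescaling. miR-29a-3p was given above, and miR-29b-1-5p was also higher under all 3 scalings (2.64 as deposited and 1.26 rescaled). The calls of miR-29a-5p (1.84 as deposited and 0.47 rescaled) and miR-29b-3p (1.33 as deposited and −0.05 rescaled) were lost rescaled. In the miR-30 family 7 of 11 tested members were called higher, 0 lower and 4 neither, at a median log2 difference of 0.87, and 3 higher and 4 lower after rescaling. Here the abundant guides parted, with miR-30c-5p higher under all 3 scalings (2.32 as deposited and 0.93 rescaled), miR-30e-5p higher as deposited only (2.09 as deposited and 0.70 rescaled), and miR-30a-5p and miR-30d-5p not called as deposited and lower rescaled (0.25 as deposited and −1.14 rescaled for miR-30d-5p). miR-30c-5p had 21740.3, 26497 and 41526 on 308 kPa, against 8563, 2573 and 8787 on 1 kPa, and miR-30d-5p had 66982, 65919 and 75787 on 308 kPa, against 54676, 41347 and 88204 on 1 kPa. Only miR-30c-5p was separated between the substrates.

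The lists of miRNAs typical of mesenchymal cells behaved unevenly. For miR-199 and miR-214, in part from a transcript antisense to Dnm3 that is active in mesenchyme, 6 of 6 tested members were called higher, 0 lower and 0 neither, at a median log2 difference of 1.76, and 2 higher and 0 lower after rescaling. The exceptions to the rescaled call included miR-214-3p (1.70 as deposited and 0.31 rescaled). For miR-143 and miR-145, a smooth muscle and fibroblast cluster, 3 of 4 tested members were called higher, 0 lower and 1 neither, at a median log2 difference of 1.92, and 1 higher and 1 lower after rescaling. miR-143-5p was higher under all 3 scalings (2.14 as deposited and 0.76 rescaled), miR-145a-5p (1.997 as deposited and 0.61 rescaled) and miR-145a-3p (1.83 as deposited and 0.45 rescaled) only as deposited, and miR-143-3p, the far more abundant arm, was lower rescaled. In the miR-21 list 1 of 3 tested members were called higher, 0 lower and 2 neither, at a median log2 difference of −0.05, and 0 higher and 2 lower after rescaling, with miR-21a-3p at 1.22 as deposited and −0.16 rescaled and miR-21b at −0.05 as deposited and −1.42 rescaled.

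For miR-23, miR-27 and miR-24, which come from a pair of paralogous transcripts, 10 of 11 tested members were called higher, 0 lower and 1 neither, at a median log2 difference of 1.42, and 3 higher and 1 lower after rescaling. miR-23a-3p was higher under all 3 scalings (2.68 as deposited and 1.29 rescaled), miR-27a-3p as deposited only (1.88 as deposited and 0.49 rescaled), and miR-27b-3p turned direction (1.16 as deposited and −0.23 rescaled). For miR-221 and miR-222 3 of 4 tested members were called higher, 0 lower and 1 neither, at a median log2 difference of 1.25, and 1 higher and 1 lower after rescaling. miR-222-3p shares the seed and the transcript of miR-221-3p but came out at 1.55 as deposited and 0.16 rescaled, and the passengers miR-221-5p and miR-222-5p at 0.95 as deposited and −0.44 rescaled and at −0.24 as deposited and −1.63 rescaled. For miR-99, miR-100 and miR-125 5 of 11 tested members were called higher, 1 lower and 5 neither, at a median log2 difference of 1.03, and 2 higher and 4 lower after rescaling. miR-125a-5p (2.63 as deposited and 1.25 rescaled) rose with miR-125b-5p under all 3 scalings, while miR-100-5p fell and miR-99b-5p was lower rescaled.

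For the list of miR-26, miR-103, miR-107, miR-148 and miR-152 9 of 12 tested members were called higher, 0 lower and 3 neither, at a median log2 difference of 2.08, and 6 higher and 3 lower after rescaling. miR-103-3p (2.28 as deposited and 0.89 rescaled), miR-26b-5p (2.59 as deposited and 1.20 rescaled) and miR-152-3p (2.25 as deposited and 0.86 rescaled) were higher under all 3 scalings, and miR-26a-5p (1.38 as deposited and −0.01 rescaled) as deposited only. For miR-181 8 of 8 tested members were called higher, 0 lower and 0 neither, at a median log2 difference of 1.95, and 2 higher and 0 lower after rescaling. miR-181b-5p was higher under all 3 scalings (2.07 as deposited and 0.68 rescaled), miR-181a-5p (1.60 as deposited and 0.21 rescaled) and miR-181d-5p (1.93 as deposited and 0.54 rescaled) were so as deposited only, and miR-181c-3p turned direction (1.29 as deposited and −0.09 rescaled). For miR-130 and miR-301 6 of 8 tested members were called higher, 0 lower and 2 neither, at a median log2 difference of 1.69, and 2 higher and 2 lower after rescaling, with miR-301a-3p higher under all 3 scalings (2.42 as deposited and 1.06 rescaled), miR-301a-5p (2.01 as deposited and 0.62 rescaled) and miR-130a-3p (1.80 as deposited and 0.42 rescaled) as deposited only, and miR-130b-5p reversed (0.79 as deposited and −0.59 rescaled).

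For miR-34, which p53 induces, 5 of 6 tested members were called higher, 0 lower and 1 neither, at a median log2 difference of 1.83, and 2 higher and 1 lower after rescaling. miR-34a-5p was higher under all 3 scalings (2.75 as deposited and 1.37 rescaled), miR-34b-3p (1.87 as deposited and 0.48 rescaled) and miR-34c-3p (1.68 as deposited and 0.29 rescaled) as deposited only, and miR-34c-5p, the most abundant, turned direction (0.49 as deposited and −0.90 rescaled). Among miRNAs that are induced by stimuli such as hypoxia, inflammation or serum 9 of 13 tested members were called higher, 0 lower and 4 neither, at a median log2 difference of 1.85, and 4 higher and 2 lower after rescaling. miR-31-5p had 66328, 51600.1 and 77062 on 308 kPa, against 11951, 2882 and 11075 on 1 kPa (3.14 ± 0.44 (SE), adjusted p = 6.36e-05, 1.76 rescaled), with no overlap and library 2 lowest on 1 kPa. The hypoxia-induced miR-210-3p was also higher under all 3 scalings (3.04 as deposited and 1.66 rescaled), miR-155-5p as deposited only (1.85 as deposited and 0.46 rescaled), and miR-146b-5p and miR-31-3p were not called as deposited (−0.69 as deposited and −2.08 rescaled for miR-146b-5p, 0.80 as deposited and −0.58 rescaled for miR-31-3p).

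**Figure D4:**
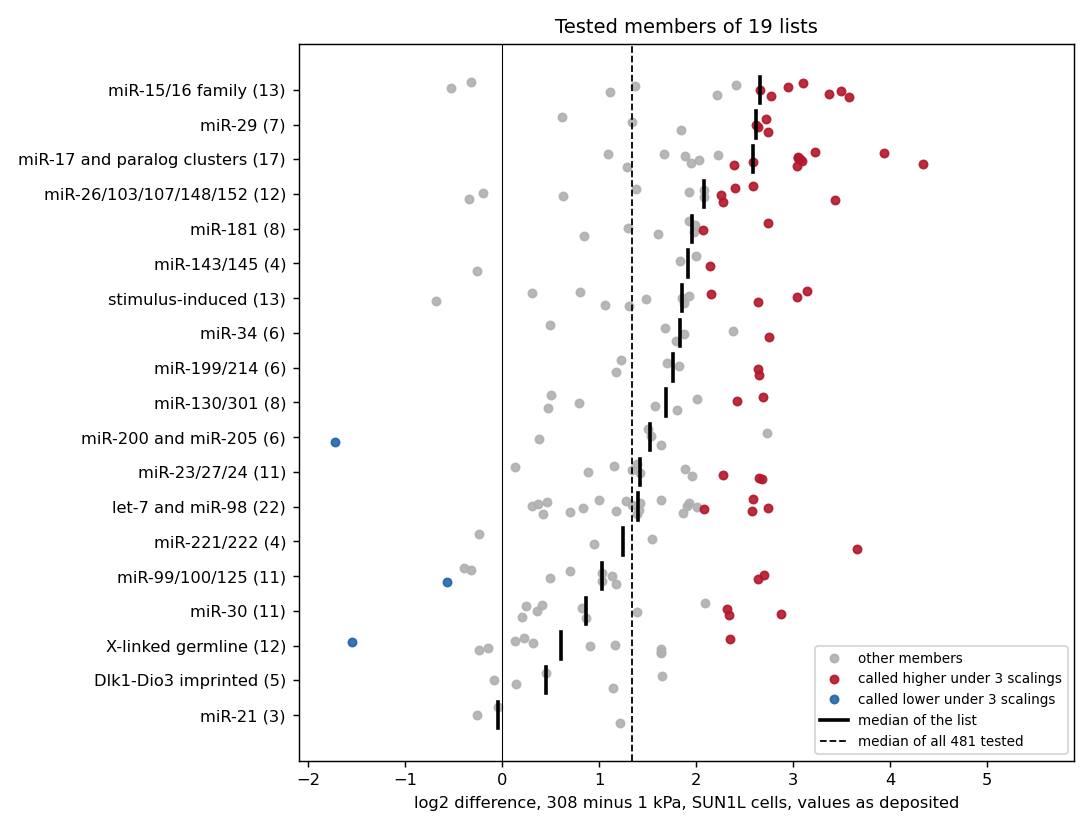
Log2 difference between substrates (308 minus 1 kPa, SUN1L cells, as deposited) of each tested member of 19 lists, with one point a miRNA, the number of tested members in brackets and the median of each list as a black line. The list medians run between −0.05 for miR-21 and 2.66 for the miR-15/16 family, beside the dashed median of 1.34 over all 481 tested miRNAs.

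Chromosomal clusters of hairpins were not uniform either. Their counts are as deposited and are read against 64.4% higher over all tested miRNAs. In the X-chromosomal group of miR-500 to miR-532, 8 of 9 tested arms were higher, and they ranged between −0.43 for miR-532-5p and 4.13 for miR-362-3p. In the X-chromosomal group of miR-450b to miR-322, 10 of 13 were higher, at differences between 0.48 for miR-542-3p and 3.15 for miR-450b-3p. In the cluster of miR-15b and miR-16-2 within the span of Smc4, 3 of 4 were higher, with miR-15b-3p at 2.22 ± 1.37 (SE) and an adjusted p of 0.164.

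Lists of miRNAs expected in other tissues were checked as well. Of the fibroblast markers all 16 arms were tested. As deposited 12 were called higher and none lower, beside 64.4% higher over all tested miRNAs. After rescaling 5 were higher and 4 lower. The summed values of the fibroblast markers were 2365819, 2172690 and 2467935 on 308 kPa, against 2246097, 1637860 and 3113121 on 1 kPa, with overlap. For the X-linked germline clusters 5 of 12 tested members were called higher, 1 lower and 6 neither, at a median log2 difference of 0.61, and 1 higher and 4 lower after rescaling. miR-880-3p had 22.8, 16.3 and 21.2 on 308 kPa, against 3.11, 3.56 and 2.66 on 1 kPa (2.35 ± 0.33 (SE), adjusted p = 6.68e-05) and rose under all 3 scalings, while miR-871-3p fell, miR-881-3p came out at 0.22 as deposited and −1.16 rescaled, and miR-465b-5p and miR-465c-5p at −0.24 as deposited and −1.60 rescaled and −0.15 as deposited and −1.49 rescaled. For the imprinted Dlk1-Dio3 cluster 5 of 101 entries passed the filter and 1 of 5 tested members were called higher, 0 lower and 4 neither, at a median log2 difference of 0.45, and of the embryonic list of miR-290 and miR-302 none of 20 did. miR-411-5p was the one called (1.65 as deposited and 0.41 rescaled), and miR-379-5p (0.14 as deposited and −1.19 rescaled), miR-541-5p (0.45 as deposited and −0.88 rescaled), miR-300-3p (1.14 as deposited and 0.03 rescaled) and miR-381-3p (−0.09 as deposited and −1.33 rescaled) were not.

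Markers of cell types other than fibroblasts summed to less than the fibroblast list, most of whose sum was miR-21a-5p. The neural sum was mostly miR-9-5p, with means of 13029 on 308 kPa and 9635 on 1 kPa. The blood list summed to 26.6 to 41.5 on 308 kPa and 16.9 to 61.3 on 1 kPa, with 1 of 9 entries tested. The epithelial list, the miR-200 family with miR-203 and miR-205, summed to 503 to 684 on 308 kPa and 250.0 to 487.1 on 1 kPa, of which 4 of 6 tested members without miR-203 were called higher, 1 lower and 1 neither, at a median log2 difference of 1.52, and 0 higher and 1 lower after rescaling. Beside both arms of miR-200a, miR-205-5p came out at 2.73 as deposited and 1.46 rescaled, miR-429-3p at 1.51 as deposited and 0.19 rescaled and miR-200b-3p at 0.38 as deposited and −1.005 rescaled. The muscle list summed to 909 to 1057 on 308 kPa and 371 to 539.9 on 1 kPa with 2 of 3 tested entries higher, the neural list to 15983 to 18326 on 308 kPa and 8729 to 17161 on 1 kPa with 3 of 6 higher, the endothelial list to 689 to 787 on 308 kPa and 258 to 552 on 1 kPa with 0 of 2 called, and the liver list, miR-122, to 24.1 to 37.5 on 308 kPa and 24.8 to 36.3 on 1 kPa with no call. The counts for these lists are as deposited unless given as rescaled, beside 64.4% higher over all tested miRNAs. After rescaling no member of the muscle and endothelial lists was called. The neural list had 1 member higher and 3 lower after rescaling, and miR-122 was lower. The sums of the epithelial, muscle and endothelial lists were greater on 308 kPa with no overlap. So were the values of 65.7% of all tested miRNAs. The part of other cells in the result was not tested.

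GC content and length of the mature sequence had weak rank correlations with the difference. Over the 427 tested miRNAs with a RefSeq sequence the Spearman rho of the log2 difference was −0.09 with GC content and 0.06 with length, and with GC content it was −0.08 after median-of-ratios scaling. In 4 groups of about equal size by GC content, from lowest to highest, the median difference was 1.64, 1.48, 1.10 and 1.27. The median was 1.41 over 209 5p arms and 1.33 over 245 3p arms. By the first base the medians were 1.54 for A, 1.39 for C, 1.63 for G and 1.16 for U. Called higher as deposited were 83 of 111 with A, 66 of 95 with C, 33 of 44 with G and 100 of 177 with U, beside 64.4% over all tested miRNAs. With the mean level the rho over all 481 miRNAs was 0.09.

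The same comparison in KDEL cells, with other libraries throughout, gave fewer calls and, as deposited, a lower median difference. In KDEL cells 1 miRNA was higher and 0 lower on 308 kPa (0.208% and 0% of 481, limma), with 129 at an unadjusted p under 0.05 and a median log2 difference of 0.54. It was miR-15a-3p (2.22, adjusted p = 0.019). edgeR called 1 higher and 2 lower, DESeq2 called 16 and 13, and the same limma fit without SUN1L 1 kPa library 2 called 29.7% higher, since all groups of a fit share one estimate of spread. With the run of consecutive library numbers as a covariate 19.8% were higher and 0.624% lower, and with array weights 38.7% and 1.87%, so that the count in KDEL cells rests on the fit. After median-of-ratios scaling the median KDEL difference was −0.006, with 0.208% higher and 0.208% lower. Over the 481 miRNAs the differences in SUN1L and in KDEL cells had a Pearson r of 0.80 and a Spearman rho of 0.81, and as deposited 85.7% of them had the more positive difference in SUN1L cells. The differences in SUN1L and in KDEL cells were 4.34 and 1.91 for miR-17-5p, 3.66 and 1.35 for miR-221-3p, and −0.57 and −0.25 for miR-100-5p.

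The difference between the lines in their response was tested as an interaction of substrate and line. It was called for 0 of 481 miRNAs (0%), with a lowest adjusted p of 0.118 in limma, and edgeR and DESeq2 called 0 as well. At an unadjusted p under 0.05 there were 26.4% of the miRNAs, of which 97.6% had the more positive difference in SUN1L cells, and the median interaction was 0.76. This balance held as deposited only, since after median-of-ratios scaling 15.8% had such a p, of which 50% were more positive in SUN1L cells, at a median of −0.03, and after quantile scaling 17.9%, of which 60.5% were, at a median of 0.007. miR-880-3p, with the lowest p, had an interaction of 2.22 (adjusted p = 0.118), and miR-17-5p had 2.42 (adjusted p = 0.118). The mean of miR-880-3p in SUN1L cells on 1 kPa was 3.11, which stands for few reads. Of the miRNAs that were higher in SUN1L cells under all 3 scalings, 101 of 101 had a KDEL difference above 0, and of the 12 lower ones 10 had a KDEL difference below 0, the exceptions being miR-3474 and miR-184-3p, where 82.7% and 17.3% of all tested miRNAs lay above and below 0 in KDEL cells as deposited. The ratios of arms behaved alike, since 0 of 133 were called in KDEL cells (33 at an unadjusted p under 0.05) and 0 as an interaction (30 unadjusted), while 69 of the 70 called in SUN1L cells had a KDEL change of the same sign, beside 118 of the 133 tested. The count of interactions moved with the fit, since 68 were called, all more positive in SUN1L cells, with the run of consecutive library numbers as a covariate, and 0 with that covariate after median-of-ratios scaling.

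**Figure D5:**
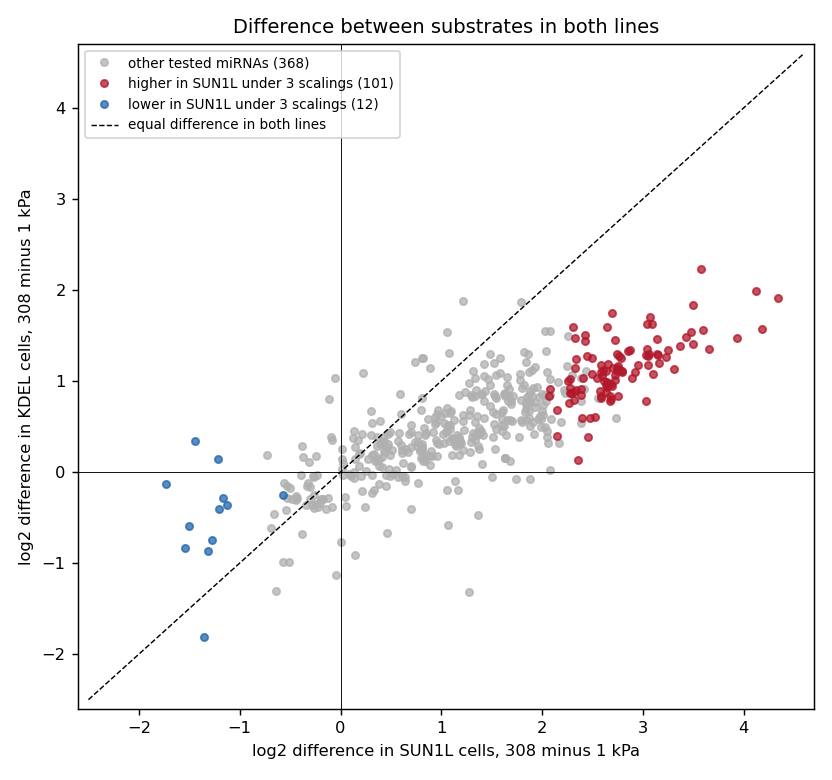
Log2 difference between substrates (308 minus 1 kPa, as deposited) in KDEL cells (vertical) against SUN1L cells (horizontal) for the 481 tested miRNAs, with one point a miRNA. Most points lie below the dashed line of equal difference on its right side, with a median of 1.34 in SUN1L cells and 0.54 in KDEL cells, and 0 interactions were called in this fit.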

How the data were processed

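Small RNA libraries of NIH 3T3 cells were made with a NEBNext kit and 15 cycles of PCR. Per the methods, the authors trimmed adapters, removed reads under 15 nt or of low quality, and counted in AvadisNGS the reads whose 5′ end matches that of a mature miRNA of miRBase release 20. The deposited signal is a normalized value per miRNA and library, whose normalization is not given in the sources used here. Above the floor of 1 each value is a whole multiple (within 0.01) of 1 factor per library, which gave the reads, and a floor value was taken as 0 reads. Positions match GRCm38 although the labels name mm9. Of 2035 entries, 1900 names remained after merging copies, and 481 reached 10 in 3 libraries. The main test was limma 3.58.1 (trend) on log2(value + 1) in R 4.3.3, over the 12 untreated libraries in 4 groups, with Benjamini-Hochberg adjustment over 481 and a threshold of 0.05. edgeR 4.0.16, DESeq2 1.42.0, other scalings, filters and pseudocounts, and leaving out libraries were alternatives. The fit was tested on simulated data with planted changes in both directions. These data held no shift shared by all miRNAs, so that the test does not bear on the choice of scaling. Named miRNAs were the up to 10 largest called differences without overlap and the 8 most abundant called miRNAs in each direction, the 4 most abundant members of each list and the 5 most abundant miRNAs without a call. Arms, clusters and let-7 members named besides were chosen after their values were seen. Members and lists were chosen with earlier results of these data known. Intervals of counting error are not given, since PCR reads are not independent molecules.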

Additional observations from a re-analysis of the deposited data

How the results depend on the processing

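No paired analysis was possible because the labels give no replicate numbers, and numbers given in accession order pair nothing. The run of consecutive library numbers, each run with 1 library of each of the 4 groups, was instead tried as a covariate, which blocks by that order and not by a pairing that the labels state. The alternatives on scaling, filter, pseudocount, test and libraries were listed beforehand with earlier results of these data known, and those on the ratio of arms, on calls shared by scalings and on leaving out libraries under median-of-ratios scaling were chosen after seeing the data. Shares are of the miRNAs tested in each setting. In SUN1L cells 64.4% were higher and 2.49% lower as reported. The shares were 3.95% and 0.208% with all 18 libraries, 22.9% and 21.8% after median-of-ratios scaling, 24.1% and 23.3% after quantile scaling, 21.4% and 25.6% with edgeR, 23.5% and 23.1% with DESeq2, and 28.3% and 29.5% with the run covariate after median-of-ratios scaling. Total-count scaling gave 49.7% higher and 7.07% lower, and a minimum value of 50 gave 72% higher and 1.77% lower. Without 1 SUN1L library 54.1% to 66.5% were higher and 1.87% to 3.53% lower, and after median-of-ratios scaling 17.3% to 24.5% higher and 16.4% to 25.8% lower.

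In KDEL cells 0.208% were higher and 0% lower as reported. With all 18 libraries 0% were higher, and once blebbistatin library 3 was left out 6.86% were higher and 0.208% lower. The shares were 0.208% lower after median-of-ratios scaling, 0.416% higher and 0.832% lower after quantile scaling, 0.624% higher with pseudocount 5, 7.69% higher with pseudocount 20, 0.416% lower with edgeR, and 3.33% higher and 2.7% lower with DESeq2. Array weights, whose estimate stopped short of its convergence tolerance, gave 38.7% higher and 1.87% lower, the run covariate 19.8% and 0.624%, and the run covariate after median-of-ratios scaling 3.12% and 5.41%. Without 1 library 0% to 29.7% were higher and 0% to 0.416% lower, and both highest shares were without SUN1L 1 kPa library 2. The interaction, with 0% as reported, was called for 0.208% with all 18 libraries or pseudocount 5, 0.832% with pseudocount 20, 0.0917% with no filter, 1.25% with array weights and 14.1% with the run covariate, and for 0% to 0.832% without 1 library, the highest without SUN1L 1 kPa library 1. Fits to the 6 SUN1L libraries alone give neither of these comparisons. The ratio of arms, with 31 hairpins for 5p and 39 for 3p of 133, gave 7 and 17 with all 18 libraries. A fit to only the 67 hairpins with a mean of at least 100 in both arms gave 21 for 5p and 21 for 3p.

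The 94 miRNAs named by rule include miRNAs that had no call as deposited. With all 18 libraries 73 of the 94 lost the call, and the other 21, those without a call included, kept their status. No pseudocount, filter, covariate without rescaling or omitted library turned a direction. Turned means a change of sign of any size, which need not be a call. The rescaled fits and the count tests turned the following, as log2 differences on 308 kPa minus 1 kPa, and the cause was not tested. After median-of-ratios scaling, with and without the run covariate, these were miR-24-3p at −0.056, miR-22-3p at −0.431, miR-199a-5p at −0.212, let-7i-5p at −0.929, let-7f-5p at −1.02 and miR-322-3p at −0.0165. The list went on with miR-16-1-3p at −0.278, miR-30a-5p at −1.18, miR-30d-5p at −1.14, miR-29b-3p at −0.0527, miR-27b-3p at −0.233 and miR-221-5p at −0.439. There followed miR-21a-3p at −0.161, miR-181c-3p at −0.0901, miR-130b-5p at −0.594, miR-26a-5p at −0.0117, miR-34c-5p at −0.898 and miR-541-5p at −0.877. Further miRNAs, not called as deposited, were negative in both of these fits and called lower only in the one with the run covariate, namely miR-31-3p at −0.585, miR-200b-3p at −1, miR-881-3p at −1.16 and miR-379-5p at −1.19. edgeR gave miR-24-3p at −0.0461, miR-22-3p at −0.456, miR-199a-5p at −0.282, let-7i-5p at −0.99, let-7f-5p at −1.04, miR-322-3p at −0.058, miR-16-1-3p at −0.309 and miR-30a-5p at −1.2. The list went on with miR-30d-5p at −1.18, miR-29b-3p at −0.0235, miR-27b-3p at −0.241, miR-221-5p at −0.473, miR-21a-3p at −0.219, miR-181c-3p at −0.114, miR-130b-5p at −0.64 and miR-26a-5p at −0.0668. There followed miR-34c-5p at −0.905, miR-200b-3p at −1.08, miR-429-3p at −0.0536, miR-881-3p at −1.28, miR-379-5p at −1.24 and miR-541-5p at −0.946. DESeq2 gave miR-22-3p at −0.393, miR-199a-5p at −0.212, let-7i-5p at −0.92, let-7f-5p at −0.96, miR-16-1-3p at −0.244, miR-30a-5p at −1.14, miR-30d-5p at −1.12 and miR-27b-3p at −0.169. The list went on with miR-221-5p at −0.402, miR-21a-3p at −0.149, miR-181c-3p at −0.0554, miR-130b-5p at −0.569, miR-34c-5p at −0.837, miR-200b-3p at −1.01, miR-881-3p at −1.22 and miR-379-5p at −1.18. Quantile scaling gave miR-16-1-3p at −0.271, miR-30d-5p at −0.74, miR-27b-3p at −0.0323, miR-221-5p at −0.289, miR-21a-3p at −0.151, miR-181c-3p at −0.331, miR-130b-5p at −0.793 and miR-541-5p at −0.85. The reads per library limit the miRNAs with values near the floor, where 1 read is worth 0.67 to 1.36.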
